A study of Mus musculus with 20 samples.

Results

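The 3 genes Map2k6, Mapk14 and Mapk8 of the stress-activated MAP kinase cascades were measured in mouse ileal mucosa, each by 1 real-time PCR assay. They were found by gene symbol and made up 3 of 648 assays, or 3 of 584 gene symbols, on an inflammation panel. The study held 20 samples of total RNA in 4 groups of 5. CEC mice were given DNBS intrarectally (dinitrobenzene sulfonic acid, which haptenates proteins and is used to provoke colitis) and an oral treatment known here only by the code CEC. Nissle mice received intrarectal DNBS and an oral treatment labelled Nissle, the name of a probiotic Escherichia coli strain. DNBS mice received intrarectal DNBS and oral phosphate-buffered saline (PBS), and were the sick controls. Healthy mice received PBS by both routes. Strain, age and time after treatment were not given in the sources used here.

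Stress and cytokine signals reach p38 and JNK through relays of kinases that phosphorylate one another. Map2k6 encodes MKK6, a dual-specificity kinase that activates p38 kinases. Mapk14 encodes p38 alpha, which acts through MK2 and transcription factors to raise the output of inflammatory cytokine mRNAs. Mapk8 encodes JNK1, which phosphorylates c-Jun, a part of the AP-1 transcription factor. In the gut, p38 and JNK signalling is known in epithelial cells and in leukocytes. The activity of these kinases is set by phosphorylation, which a transcript assay does not measure.

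The genes lie on different chromosomes of the GRCm38.p6 build: Map2k6 (gene ID 26399) at chr11:110399102-110525522, Mapk14 (26416) at chr17:28691342-28748405 and Mapk8 (26419) at chr14:33377898-33447353. All 3 symbols matched the RefSeq table. Map2k6 and Mapk14 levels moved together across samples, and Mapk8 did not follow them. With group means removed, the correlation of Mapk8 with Map2k6 and Mapk14 was -0.328 and -0.453. After the centring of table sections described with Mapk8 it was 0.234 and 0.151, so its sign depended on the scale. For this contrast, the 250 bases before the first start that RefSeq's promoter table lists for each gene are shown. They run 5′ to 3′ in the direction of the gene, and capitals mark matches to the motifs searched on both strands. These were the AP-1 site TGANTCA, the CRE half-site TGACG, the GC box GGGCGG, the CCAAT box CCAAT and the TATA box TATAAA. No 2 matches overlapped. For Map2k6 and Mapk14 that start is the outer end of the gene, whereas for Mapk8 it is position 33447158, so that 195 of the 250 bases lie inside the gene as given above.
Map2k6, chr11:110398852-110399101, plus strand: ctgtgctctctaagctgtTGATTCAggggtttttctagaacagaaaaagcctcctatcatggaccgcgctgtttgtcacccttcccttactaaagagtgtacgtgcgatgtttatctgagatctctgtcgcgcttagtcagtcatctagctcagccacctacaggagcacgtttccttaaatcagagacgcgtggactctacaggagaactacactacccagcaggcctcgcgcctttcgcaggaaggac
Mapk14, chr17:28691092-28691341, plus strand: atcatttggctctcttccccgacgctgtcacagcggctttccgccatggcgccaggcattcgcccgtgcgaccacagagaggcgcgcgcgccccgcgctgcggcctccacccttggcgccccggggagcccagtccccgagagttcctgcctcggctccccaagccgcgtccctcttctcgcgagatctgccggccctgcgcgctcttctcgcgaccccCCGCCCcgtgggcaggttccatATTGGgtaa
Mapk8, chr14:33447159-33447408, minus strand: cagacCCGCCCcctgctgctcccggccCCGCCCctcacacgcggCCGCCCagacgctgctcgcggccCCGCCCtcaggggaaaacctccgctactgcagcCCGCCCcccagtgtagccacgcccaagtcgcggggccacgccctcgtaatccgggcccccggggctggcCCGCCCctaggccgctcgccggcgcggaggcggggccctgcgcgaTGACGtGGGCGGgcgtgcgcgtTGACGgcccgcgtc

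The 3 windows had little in common in these letters. The Map2k6 window held 50.4% G and C and 1 AP-1 match, 232 bases before the start; 6.75% of 32851 RefSeq windows of the same length held one. The Mapk14 window held 70.4% G and C, 1 GC box and 1 CCAAT box. The Mapk8 window, most of it inside the gene's outer limits, held 79.2% G and C, 7 GC boxes and 2 CRE half-sites. Among all windows, 32.7% held a GC box, 33.8% a CCAAT box and 17.8% a CRE half-site. None of the 3 held TATAAA, which was in 12.4% of all windows. A match is a run of letters and not a measured binding site.

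All 3 assays gave a cycle threshold (Ct, the PCR cycle at which product is detected, lower for more template) in all 20 samples. Ct ranged between 23.0 and 24.8 cycles for Map2k6, 19.7 and 21.3 for Mapk14, and 21.4 and 25.4 for Mapk8. Levels are given as the sample's mean Ct over 544 assays measured in every sample, minus the assay's own Ct. A level is therefore on a log2 scale relative to the sample mean, on the assumption that product doubles at every cycle. Assays differ in efficiency, so levels are compared between samples and not between genes. Across the series, 570 to 594 assays gave a value per sample, and the mean Ct was 22.6 to 24.3 cycles. Epithelial markers (Apoa1, Ccl25 and Reg3g) were detected in all samples. Nissle 3, 4 and 5 carry contradictory labels: their title, description and treatments place them in the Nissle group, but their experimental-group label says healthy control. They were kept as Nissle. Nissle minus healthy for Map2k6 and Mapk14, and some correlations with marker lists, are also given without them. Mapk8 differences and counts of samples below the healthy range are not. The series describes pooling of equal RNA from each mouse, and whether a sample is 1 mouse was not given. The p-values thus rest on the spread between samples alone, some or all of which may be technical.

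No kinase gene passed the test in any comparison (limma, Benjamini-Hochberg adjusted p of at least 0.359). The background was low as well. Of 569 assays tested, 1 was called in CEC minus healthy (0.176%), 1 in Nissle minus healthy (0.176%), 1 in DNBS minus healthy (0.176%) and 1 for the mean of the 3 DNBS-treated groups minus healthy (0.176%). It was Atrn, the gene of attractin, each time. None was called in CEC minus DNBS, Nissle minus DNBS or CEC minus Nissle (0%). Before adjustment, Map2k6 and Mapk14 had p under 0.05 in Nissle minus healthy and for the 3-group mean, and Mapk8 in no comparison. Over all assays the share at that level was 9.49% in Nissle minus healthy and 12.1% for the 3-group mean. After the centring of table sections described with Mapk8, Mapk14 was no longer under 0.05 for the 3-group mean (limma, adjusted p = 0.382).

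**Figure D1:**
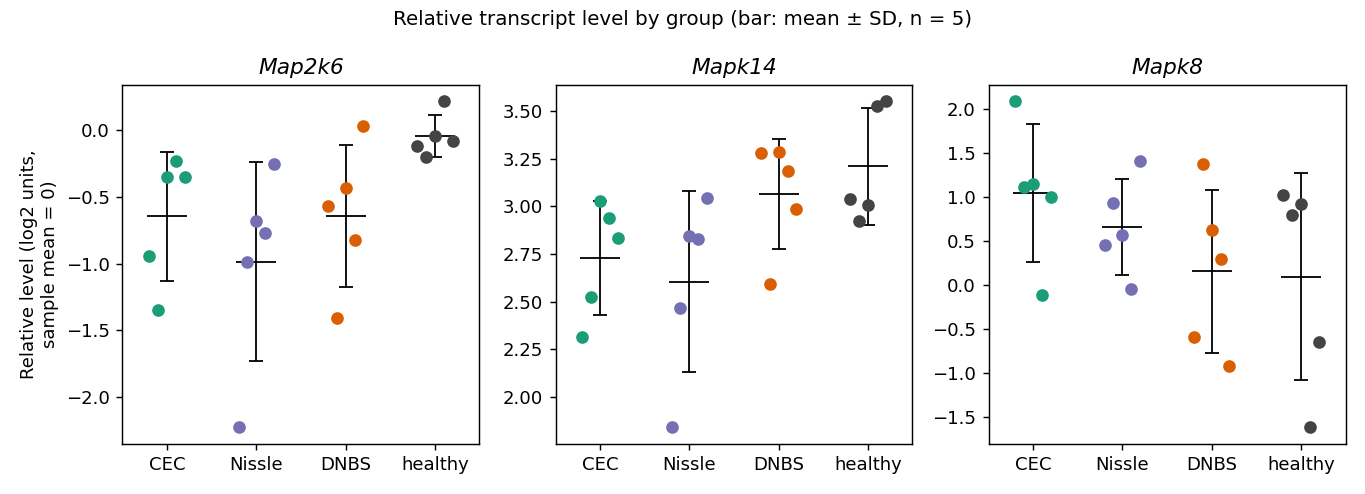
Relative level (log2, sample mean at 0) of Map2k6, Mapk14 and Mapk8, 1 point per sample, with bars for the group mean ± SD (n = 5). The healthy samples of Map2k6 lie in a narrow band between -0.20 and 0.22, with 14 of 15 DNBS-treated samples below it. After the centring of table sections described with Mapk8, 10 of 15 were below the healthy range.

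Relative to the sample mean, Map2k6, the MKK6 gene, was lower in DNBS-treated than in healthy mucosa in nearly every sample. The difference did not pass the test over all assays, and after section centring 10 of 15 samples were below the healthy range. The Map2k6 level was -0.94, -1.35, -0.35, -0.23 and -0.35 in the CEC samples. In the Nissle samples it was -2.23, -0.99, -0.68, -0.77 and -0.25, and in the DNBS samples -0.57, -1.41, -0.43, -0.83 and 0.03. The healthy samples had -0.12, -0.20, -0.04, 0.22 and -0.08. The lowest healthy sample was above all 5 CEC and all 5 Nissle samples, and above 4 of 5 DNBS samples; DNBS 5 lay inside the healthy range. On the panel, all 5 CEC samples were lower than every healthy sample for 0.544% of assays, and all 5 Nissle samples for 2.52%. At least 14 of the 15 DNBS-treated samples were lower for 4 of 544 assays (0.735%), 1 of them Map2k6. The limit of 14 equals the count of Map2k6 itself, so this share is a description and no test. Only the lower direction was counted.

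The Map2k6 mean was -0.64 ± 0.48 in CEC, -0.98 ± 0.75 in Nissle, -0.64 ± 0.53 in DNBS and -0.04 ± 0.16 in healthy mice (SD, n = 5 each). The SD of each DNBS-treated group was thus larger than that of the healthy group. Nissle minus healthy was -0.94 (SE 0.34, 95% confidence interval -1.66 to -0.23), or 1.92-fold lower, with an unadjusted p of 0.0124 and an adjusted p of 0.488 (limma). CEC minus healthy and DNBS minus healthy were both -0.60 (SE 0.34, adjusted p = 0.803 and 0.437). The mean of the 3 DNBS-treated groups minus healthy was -0.71 (SE 0.28, interval -1.30 to -0.13, adjusted p = 0.359 in limma), or 1.64-fold lower.

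Between the DNBS-treated groups, Map2k6 differences were small beside their error. CEC minus DNBS was -0.0028, with an interval of -0.72 to 0.71. Nissle minus DNBS was -0.34 (-1.06 to 0.37) and CEC minus Nissle was 0.34 (-0.37 to 1.06). Nissle 1 carried much of the Nissle value: without it, Nissle minus healthy was -0.63 (limma, adjusted p = 0.943) and Nissle minus DNBS was -0.032. Without Nissle 3, 4 and 5, Nissle minus healthy was -1.57 (adjusted p = 0.0835).

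Mapk14, the p38 alpha gene, had its lowest levels in the CEC and Nissle groups, and the DNBS group lay close to the healthy one. The CEC samples had levels of 2.31, 2.52, 3.03, 2.94 and 2.83, and the Nissle samples 1.84, 2.47, 2.85, 2.83 and 3.04. The DNBS samples had 3.28, 2.60, 3.28, 3.18 and 2.98, and the healthy samples 3.04, 2.92, 3.005, 3.53 and 3.55. Each group overlapped the healthy range: 3 of 5 CEC, 4 of 5 Nissle and 1 of 5 DNBS samples were below the lowest healthy sample. For such partial counts within a group, here and for Map2k6, the share over all assays was not computed. Means were 2.73 ± 0.30 in CEC, 2.60 ± 0.47 in Nissle, 3.07 ± 0.29 in DNBS and 3.21 ± 0.30 in healthy mice (SD, n = 5 each).

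Nissle minus healthy was -0.60 for Mapk14 (SE 0.24, interval -1.10 to -0.11), with an unadjusted p of 0.0192 and an adjusted p of 0.488 in limma. CEC minus healthy was -0.48 (interval -0.98 to 0.01, adjusted p = 0.803, limma), and DNBS minus healthy was -0.14 (-0.64 to 0.35, adjusted p = 0.850). Against the DNBS group, CEC differed by -0.34 (-0.83 to 0.16) and Nissle by -0.46 (-0.96 to 0.03), with both intervals including 0. CEC minus Nissle was 0.12 (-0.37 to 0.62). Without Nissle 1, Nissle minus healthy was -0.41. Without Nissle 3, 4 and 5 it was -1.06 (limma, adjusted p = 0.0835), and Nissle minus DNBS was -0.92.

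In each sample the Map2k6 level can be set against that of its substrate gene, which removes the sample mean. Map2k6 minus Mapk14 averaged -3.37 ± 0.29 in CEC, -3.59 ± 0.29 in Nissle, -3.71 ± 0.44 in DNBS and -3.25 ± 0.23 in healthy mice (SD, n = 5 each). It was below every healthy sample in 4 of 5 DNBS samples, 1 of 5 CEC and 1 of 5 Nissle samples. The remaining DNBS sample, DNBS 5, went the other way, at -2.96 against -3.05 in the highest healthy sample. These values were not tested, and no share over pairs of other assays was computed.

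**Figure D2:**
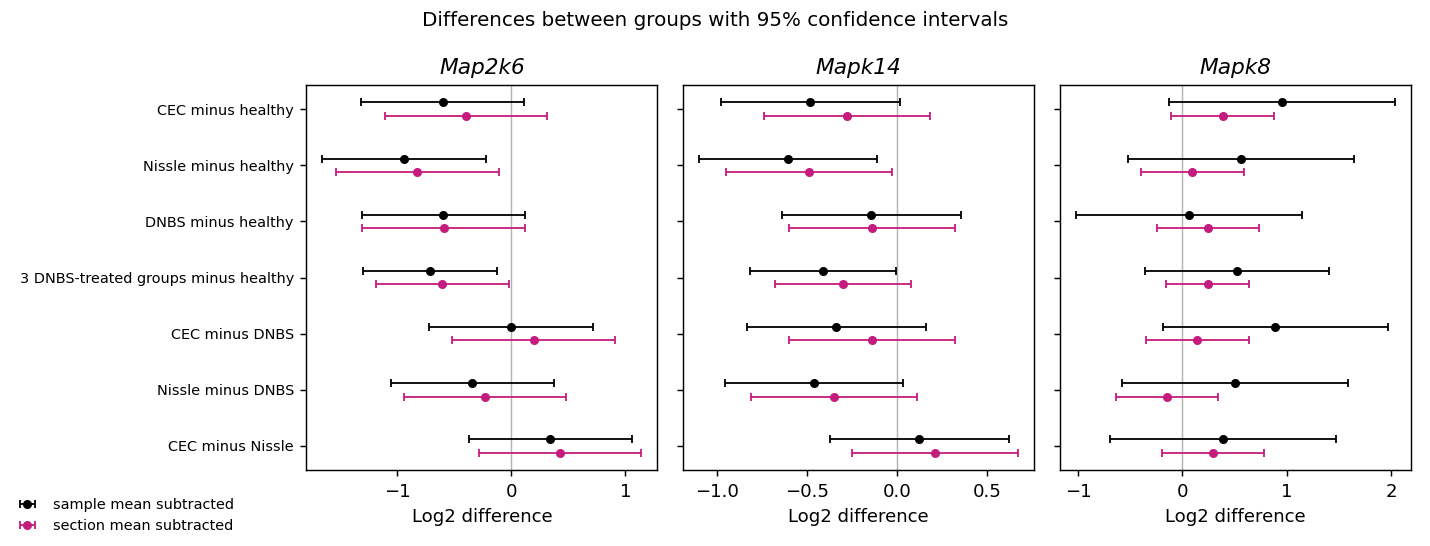
Differences between groups in log2 units with 95% confidence intervals for each gene, from levels relative to the sample mean (black) and relative to the mean of the assay's own section of the table (magenta). The Mapk8 intervals are shorter on the second scale, and the Map2k6 and Mapk14 intervals keep about the same width. On that scale the Mapk8 estimate for Nissle minus DNBS is below 0 (-0.15), with an interval of -0.64 to 0.34 that includes 0.

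Mapk8, the JNK1 gene, varied most, and its values followed the place of its assay in the table. The CEC samples had levels of 2.08, 1.11, 1.14, -0.11 and 0.996, and the Nissle samples 0.45, 0.93, 0.56, -0.05 and 1.40. The DNBS samples had -0.60, 1.37, 0.62, 0.29 and -0.93, and the healthy samples 1.02, 0.79, 0.92, -1.62 and -0.65. All groups overlapped, with healthy 5, DNBS 5, healthy 6 and DNBS 1 lowest. Means were 1.04 ± 0.78 in CEC, 0.66 ± 0.55 in Nissle, 0.15 ± 0.93 in DNBS and 0.09 ± 1.17 in healthy mice (SD, n = 5 each). CEC minus healthy was 0.95 (SE 0.52, interval -0.13 to 2.03, limma adjusted p = 0.803), and CEC minus DNBS was 0.89 (-0.19 to 1.97, adjusted p = 0.501). Nissle minus healthy was 0.56 and DNBS minus healthy 0.059, each with an SE of 0.52.

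The table runs in 12 sections of 54 rows, within which the Ct values of a sample shift together. The Mapk8 assay lies in section 1, where the mean Ct exceeded the sample mean by 0.07 to 2.49 cycles, most in healthy 5 (2.49), DNBS 1 (2.33), DNBS 5 (1.99) and healthy 6 (1.61). These are the samples lowest for Mapk8. Across the 20 samples, with group means removed, the correlation of its level with the mean level of its section was 0.912, against 0.227 for Mapk14 and 0.00948 for Map2k6, both in section 11. Section 1 as a whole had a level 0.57 higher in CEC than in healthy samples and 0.75 higher in CEC than in DNBS samples. After each section was centred, Mapk8 gave 0.39 for CEC minus healthy and 0.14 for CEC minus DNBS (SE 0.24 each), and -0.15 for Nissle minus DNBS, which was 0.51 before. What the sections stand for on the plates was not given in the sources used here.

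**Figure D3:**
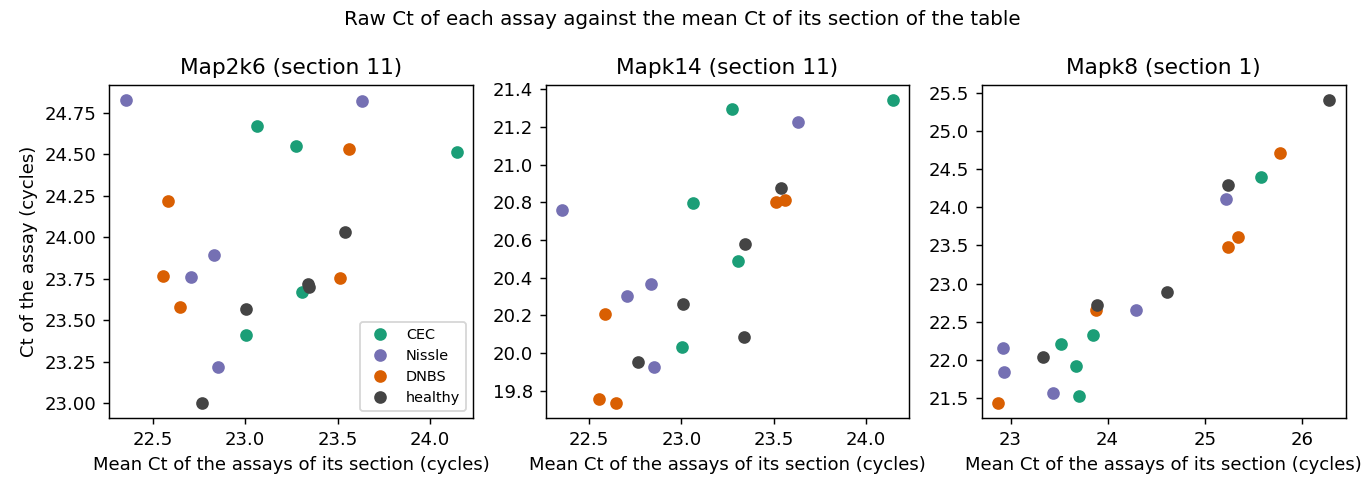
Raw Ct of each assay against the mean Ct of its section of the table (both in cycles), 1 point per sample, coloured by group. Mapk8 follows the mean of section 1 closely, while Map2k6 and Mapk14 show no such close relation to the mean of section 11.

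Section centring moved the other genes less. Map2k6 then gave -0.40 for CEC minus healthy, -0.82 for Nissle minus healthy and -0.59 for DNBS minus healthy, with 2 of 5 CEC, 4 of 5 Nissle and 4 of 5 DNBS samples below the healthy range. Mapk14 gave -0.28, -0.49 and -0.14 for the same comparisons. The complete separation of the CEC and of the Nissle samples from the healthy ones for Map2k6 was thus present only on the first of the 2 scales. Of the 15 DNBS-treated samples, 10 were below the healthy range after section centring and 5 were inside it.

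Across samples, Map2k6 was low where neutrophil and macrophage markers were high, which did not hold for every marker list. Neutrophil markers were S100a8, S100a9, Ltf, Il8rb, Ncf1, Camp and Fpr1, measured by 8 assays, and the macrophage, monocyte and dendritic cell list held 9 assays, among them Cd14, Itgam and Mrc1. With group means removed, so that group differences played no part, Map2k6 and the mean level of the neutrophil markers had a Pearson r of -0.932 and a Spearman rho of -0.902 over 20 samples. The permutation p was 3e-05 for r and 7e-05 for rho, or 0.000315 and 0.000735 after adjustment over the 21 relations computed (3 genes and 7 lists). Without DNBS 2 and Nissle 1, the samples farthest from the median of the markers, r was -0.878. Only 1 of the other 535 assays outside the marker list had a lower r, and the median over all 536 was -0.161. After section centring r was -0.955, and without Nissle 3, 4 and 5 it was -0.911.

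The same held for macrophage, monocyte and dendritic cell markers. Their r with Map2k6 was -0.856 (rho -0.878, permutation p = 2e-05 and 1e-05 (1e-05 is the smallest that the permutations can give), adjusted p = 0.000315 and 0.00021), and -0.857 without CEC 1 and Nissle 1. In these samples Map2k6 and both marker levels share the sample mean as a term. With raw Ct in place of levels, r was -0.408 with neutrophil markers and -0.209 with macrophage markers (permutation p = 0.17 and 0.438).

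Mapk14 showed the same relation less firmly. Its r was -0.709 with neutrophil markers (rho -0.526, permutation p = 0.00575 and 0.0201, adjusted p = 0.0201 and 0.0496) and -0.758 with macrophage markers (rho -0.728, permutation p = 0.00043 and 0.00028, adjusted p = 0.00301 and 0.00196). The first rests on single samples: without DNBS 2 and Nissle 1 it was -0.411, and without Nissle 1 alone the adjusted permutation p was 0.158. The second was -0.613 without CEC 1 and Nissle 1. Mapk8 had r of 0.268 and 0.417 with the same lists (adjusted permutation p = 0.243 and 0.122), and after section centring -0.0924 and -0.118.

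**Figure D4:**
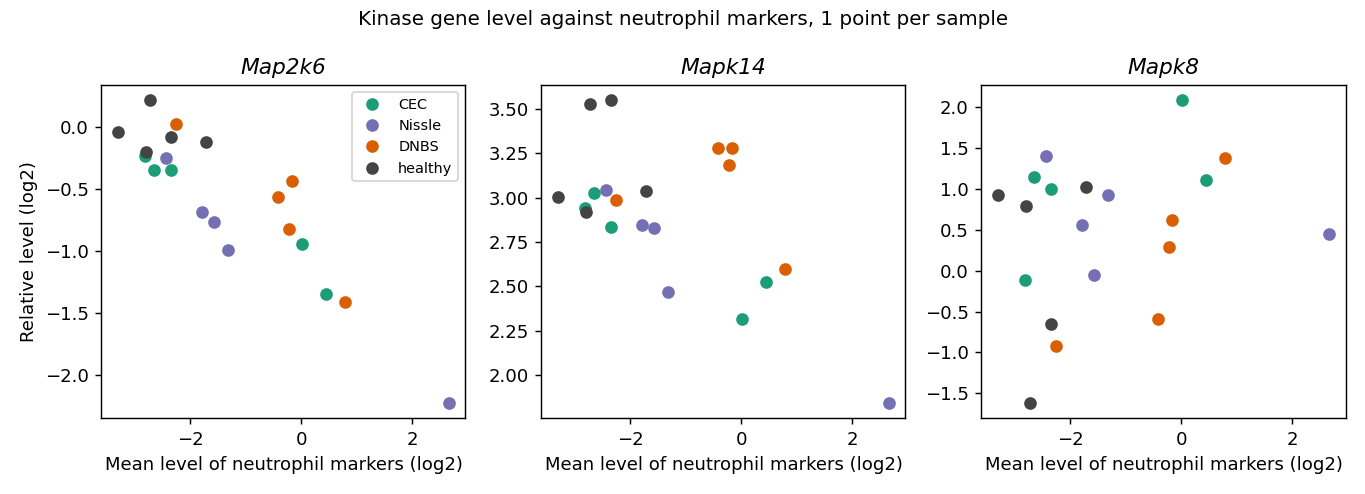
Relative level of each kinase gene against the mean relative level of 8 neutrophil marker assays (both log2), 1 point per sample, coloured by group. Map2k6 is lower where the markers are higher, with Nissle 1 at the lower right (2.66 for the markers and -2.23 for Map2k6) and the healthy samples at the upper left.

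The samples at the extremes were those named above. Neutrophil markers had a mean level of 2.66 in Nissle 1, 0.79 in DNBS 2, 0.45 in CEC 3 and 0.02 in CEC 1, and these were the samples with the lowest Map2k6 level in the Nissle and DNBS groups and the 2 lowest in the CEC group. In healthy samples the marker mean lay between -3.29 and -1.71. Summed over the list on a linear scale, where an assay at the sample mean counts as 1, the markers came to 2.33 to 28.4 in CEC, 2.77 to 183 in Nissle, 4.10 to 63.3 in DNBS and 1.95 to 4.52 in healthy samples. For macrophage markers the ranges were 5.71 to 25.5, 5.82 to 39.7, 8.28 to 17.2 and 4.96 to 7.15 in the same groups. No marker of either list was undetermined in all samples. The part of neutrophil and macrophage RNA in the Map2k6 and Mapk14 differences was not tested. In bulk mucosa, fewer cells that express a gene and less of its RNA per cell cannot be told apart.

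As a list, epithelial markers did not move with Map2k6 as steadily. Ccl25 alone had an r of 0.943 with Map2k6 after section centring, and 0.905 without Nissle 1. The 4 assays of Apoa1, Ccl25 and Reg3g had an r of 0.511 with Map2k6 (rho 0.242, adjusted permutation p = 0.122 and 0.406) and of 0.417 with Mapk14 (rho 0.256, 0.178 and 0.406). Without DNBS 2 and Nissle 1 these were -0.116 and -0.197. After section centring they were 0.754 and 0.679 (adjusted permutation p = 0.00609 and 0.00932), and 0.541 and 0.452 without the same samples. Mapk8 had an r of 0.407 (rho 0.511, adjusted permutation p = 0.168 and 0.0588), which was 0.838 without DNBS 2 and Nissle 1. Without DNBS 2 alone it was 0.688 (adjusted permutation p = 0.00697), and Mapk14 without healthy 5 had 0.65 (adjusted permutation p = 0.0486). The summed epithelial level was 1990 to 4220 in CEC, 2220 to 3800 in Nissle, 2300 to 5260 in DNBS and 2500 to 4130 in healthy samples, a sum in which Reg3g, with the lowest Ct, weighs most. The mean of the log2 levels weighs the assays alike. It was 8.15 to 8.81 in CEC, 6.91 to 8.59 in Nissle, 6.81 to 8.10 in DNBS and 7.26 to 8.48 in healthy samples. In CEC minus DNBS, 3 of the 4 assays were higher with a median of 1.14. Of the 4, 3 had an unadjusted p under 0.05 (limma), against 10.7% of all assays, with none past adjustment. After section centring 3 were higher with a median of 0.86, and 1 had an unadjusted p under 0.05 (limma). The share of all assays under 0.05 was not computed on that scale.

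The other marker lists gave a mixed picture. Selp, the P-selectin gene of endothelium and platelets, was the only marker used from the endothelium and stroma list. Sele, with a value in 15 samples, was left out. Selp had an r of -0.82 with Map2k6 (rho -0.761, adjusted permutation p = 0.00724 and 0.0122), and of -0.703 without CEC 5 and Nissle 1. Without Nissle 1 alone it was -0.682 (adjusted permutation p = 0.0553), and without Nissle 3, 4 and 5 it was -0.793 (adjusted permutation p = 0.0562). With Mapk14 it was -0.632 (rho -0.531, adjusted permutation p = 0.0461 and 0.0496), and -0.276 without CEC 5 and Nissle 1. Leaving out any 1 of 11 samples brought the adjusted permutation p above 0.05. Without Nissle 3, 4 and 5, r was -0.55 (adjusted permutation p = 0.183). Eosinophil and mast cell markers (4 assays of Ccr3, Prg2 and Kit) ran the other way, with an r of 0.597 for Map2k6 and 0.418 for Mapk14 (adjusted permutation p = 0.111 and 0.196). Without DNBS 3, Map2k6 had 0.725 with them (adjusted permutation p = 0.0337), and after section centring 0.694 (adjusted permutation p = 0.0263). T cell markers (Cd4, Cd28, Ctla4 and Foxp3) had an r of 0.425 and 0.385 with the same genes (rho 0.517 and 0.574, adjusted permutation p = 0.119 and 0.168 for r, 0.0491 and 0.0496 for rho), and 0.0363 and -0.00304 after section centring. With Mapk8, T cell markers had an r of -0.714 (rho -0.635, adjusted permutation p = 0.00949 and 0.0396). It was -0.461 without DNBS 5 and healthy 5, and -0.255 after section centring (adjusted permutation p = 0.46). Eosinophil and mast cell markers and Selp had an r of -0.177 and 0.0908 with Mapk8. Cr2, the only measured B cell marker, had an r of -0.0167 with Map2k6, 0.208 with Mapk14 and -0.355 with Mapk8 (adjusted permutation p of 0.168 or more), and the last was -0.624 after section centring (adjusted permutation p = 0.022).

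By their pattern over the 20 samples with group means removed, the assays most like Map2k6 among 543 were Rhoa (r = 0.935), Pik3r1 (0.934) and Ltbp4 (0.924). Rhoa encodes a small GTPase of the cytoskeleton, Pik3r1 a regulatory subunit of PI3 kinase and Ltbp4 a binding protein of latent TGF-beta. Mapk14 came at rank 55 of that order (r = 0.798, and 0.663 without Nissle 1). The assays most like Mapk14 were Ywhaz (0.897), Il10rb (0.869) and Actb (0.863), with Map2k6 at rank 10; Ywhaz and Actb are commonly used as reference genes. Those most like Mapk8 were Bmp7 (0.923), Tollip (0.900) and Nfkb1 (0.894), all in section 1, as were 16 of the 20 most alike. After section centring, 2 of 20 were, and the leading assay was Tnfrsf1a (0.734), a TNF receptor gene. On that scale Cd74 (0.947), Pik3r1 (0.943) and Ccl25 (0.943) led for Map2k6. For Mapk14 the leading assays were then Pxmp2 (0.881), Ly75 (0.866) and Actb (0.856). Mapk8 had an r of -0.328 with Map2k6 and -0.453 with Mapk14, which was 0.234 and 0.151 after centring. These correlations are given as descriptions over samples that share their normalization.

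None of the other pathway genes on the panel differed past the test. Of 71 symbols listed for the p38, JNK and ERK cascades, 11 genes were on the panel with 12 assays, all tested. In all 7 comparisons none was called, and none had an unadjusted p under 0.05 in any (limma). After section centring, 3 had one in Nissle minus healthy, namely Irak2, Map2k3 and Jun (limma, smallest adjusted p = 0.334). A single assay, Irak2, had one in each of DNBS minus healthy, the 3-group mean and CEC minus Nissle, and again none was called. By p on that scale, Irak2 ranked 14, Map2k3 27 and Jun 58 of 569 assays in Nissle minus healthy. The share of all assays under 0.05 after section centring was not computed. Before section centring, 3 of the 12 assays were higher and 9 lower in CEC minus healthy, with a median of -0.22, against -0.08 over all assays. In Nissle minus healthy, 1 was higher and 11 lower, with a median of -0.23, against -0.10 over all assays. In DNBS minus healthy, 6 were higher and 6 lower, with a median of -0.03, against -0.07. Over all assays, 319 of 569 were lower in CEC minus healthy, 329 in Nissle minus healthy and 315 in DNBS minus healthy. These comparisons share the healthy samples.

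Map2k3, the gene of the other principal p38 activator, had a mean level of 2.51 ± 0.25 in CEC, 2.12 ± 0.62 in Nissle, 2.13 ± 0.64 in DNBS and 2.49 ± 0.30 in healthy mice (SD, n = 5 each). Its differences from healthy were 0.01 in CEC, -0.38 in Nissle and -0.36 in DNBS, and after section centring they were -0.31, -0.70 and -0.40. The CEC value thus depended on the scale. Mapkapk2, the gene of MK2 downstream of p38, differed from healthy by -0.16 in CEC, -0.21 in Nissle and 0.054 in DNBS, and by 0.21, 0.015 and 0.17 after section centring, so its direction depended on the scale. Jun, the JNK substrate gene, differed by -0.21, -0.41 and -0.08 in the same order. Both Fos assays were lower in CEC (-0.39 and -0.29) and in Nissle (-0.17 and -0.04) and higher in DNBS (0.076 and 0.29), none past the test. Adaptor genes of the interleukin-1 and Toll-like receptors gave differences of either sign. Irak1 differed from healthy by -0.16 in CEC, -0.28 in Nissle and 0.30 in DNBS, and Irak2 by -0.29, -0.62 and -0.17. Irak4 differed by -0.41, -0.47 and 0.0022, and Myd88 by 0.16, -0.028 and 0.028. Nfatc4, a calcineurin-dependent transcription factor gene, was at -0.22 in CEC, -0.26 in Nissle and -0.76 in DNBS minus healthy.

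**Figure D5:**
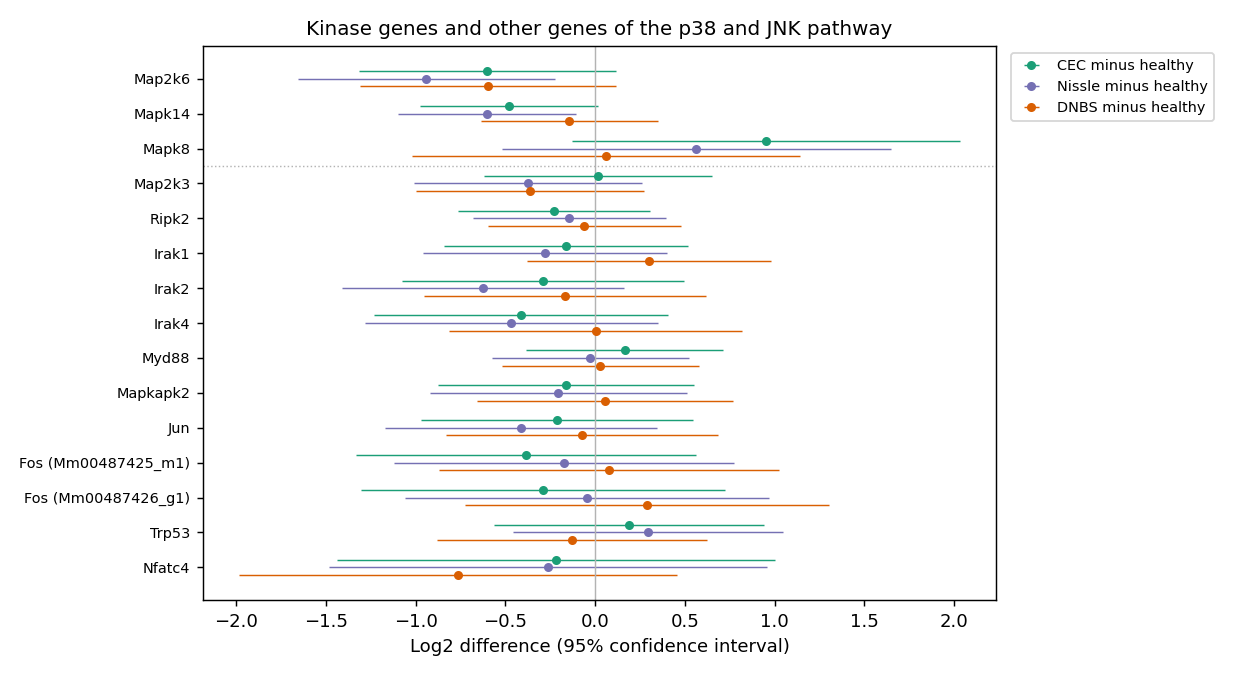
Log2 differences from healthy mice with 95% confidence intervals for the 3 kinase genes (above the dotted line) and 12 assays of 11 other pathway genes (below it), in CEC (green), Nissle (violet) and DNBS (orange). Every interval of the 12 assays includes 0, as do all but those of Map2k6 and Mapk14 in Nissle among the kinase genes.

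Transcripts known to depend on p38 or JNK formed another list: 13 assays of 9 genes, of which 11 were tested and none passed (limma, adjusted p of at least 0.122). The Fos and Jun assays are in this list and in the pathway list. Tnf gave no value in any sample. Unadjusted p was under 0.05 for 4 of the 11 in DNBS minus healthy, 1 in CEC minus healthy and 3 in Nissle minus healthy, against 14.6%, 3.87% and 9.49% of all assays. Medians were 0.17 in CEC, 0.59 in Nissle and 1.08 in DNBS, each minus healthy. The widest differences were those of Cxcl2, a neutrophil chemokine gene, at 3.22 in CEC, 3.57 in Nissle and 4.78 in DNBS, and of Il6, whose assays disagreed. Il6_Mm00446190_m1 gave 1.77, 2.96 and 4.62 (SE 1.22 each). Il6_Mm01210733_m1, with missing values, gave -6.99, -6.39 and -4.06 in the same order (SE 3.75 each, interval -11.9 to 3.8 in DNBS). Summed on a linear scale, the 13 assays reached 271000 in the highest healthy sample, against a healthy median of 42. In the other groups the highest sum was 53.3 in CEC, 87.5 in Nissle and 65.3 in DNBS. The assay behind the healthy sum was not traced, and the disagreement of the Il6 assays was not tested. Il6_Mm01210733_m1, with 18 values, was kept in the counts and medians of the list. No direction of change for Il6 is read from that assay. The chemokine gene Ccl2 differed from healthy by 1.04 in CEC, 1.86 in Nissle and 1.79 in DNBS, and Ptgs2, the inducible cyclooxygenase gene, by 0.17, 0.46 and 1.08. Nos2, the inducible nitric oxide synthase gene, differed by 0.72, 0.59 and 0.78. All 11 were lower in CEC than in DNBS mice, with a median of -0.76. Of these, 2 had an unadjusted p under 0.05 and none passed adjustment (smallest adjusted p = 0.416, limma). The 2 were Il6_Mm00446190_m1 (-2.85) and Il1b_Mm99999061_mH (-1.98), and the other Il1b assay gave -0.75. Over all assays, 296 of 569 were lower in this comparison and 10.7% had an unadjusted p under 0.05. After section centring, 10 were lower and 1 higher, with 1 at an unadjusted p under 0.05 (limma). On that scale the share over all assays was not computed.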

How the data were processed

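Cycle threshold (Ct) values of 648 TaqMan OpenArray assays in 20 samples were taken from 1 deposited table, which per the file headers holds raw, non-normalized Ct and is a truncated example. Ct is on a scale of PCR cycles, another unit than counts or intensities. RNA was isolated with the mirVana kit, per the labels' protocols. Baseline and threshold settings were not given in the sources used here. A Ct of 40 (1273 cells) was taken as undetermined, and 1 cell was empty. No 2 samples held identical values.

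Levels were the sample's mean Ct over 544 assays minus the assay's Ct. The 569 assays with at least 3 values per group were fitted with limma 3.58.1 in R 4.3.3: 4 group means, empirical Bayes with a trend, two-sided tests, Benjamini-Hochberg adjustment at 0.05 in each of 7 comparisons. The script was tested on simulated data. Correlations across samples used 100000 permutations within groups, two-sided, in Python with numpy, and were adjusted over 21 relations (3 genes, 7 marker lists). They, and the centring of sections of 54 rows, were added after the data were seen. The members and the lists were chosen with earlier results of these data known.

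Named genes were the 3 members, for each the 3 assays most alike over samples, the pathway genes on the panel and the assay called. Alternatives were reference assays, median Ct, quantile and no normalization, undetermined values at 40, late values left out, array weights, no trend, compared groups alone, a replicate block and each sample left out. Groups share sample numbers. Same-numbered DNBS and healthy samples deviated together (r of 0.136 to 0.491 in 3 pairs), by the data and not the labels. CEC and healthy shared 2 numbers (r of 0.114 and 0.13), and each other pair of groups had at least 1 value under 0.1. After section centring the DNBS and healthy values were 0.253, -0.0323 and 0.0363, so this pairing depends on the sections. Sequences and coordinates are from RefSeq tables of GRCm38.p6, and the chromosomal positions of the assays were not used here. The number of samples limits precision, and Ct gives no count of molecules.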

Additional observations from a re-analysis of the deposited data

How the results depend on the processing

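The count of kinase genes past the threshold was 0 under every alternative run, in each of the 7 comparisons and over the 4 groups. The smallest adjusted p was 0.0835 (limma), for Map2k6 and Mapk14 in Nissle minus healthy without Nissle 3, 4 and 5. Of 732 recomputed differences, 705 kept their direction and 27 changed sign, none past the threshold.

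DNBS minus healthy for Mapk8 (0.059) was -0.0075 with reference assays, -0.031 with median Ct, -0.20 with array weights and -0.37 to 0.33 with 1 sample left out. For Mapk14 (-0.14) it was 0.088 without normalization. CEC minus DNBS for Map2k6 (-0.0028) was 0.14 with median Ct, 0.059 with quantile normalization, 0.016 with the compared groups alone, 0.15 with array weights, 0.20 with sections centred and -0.20 to 0.17 with 1 sample left out. CEC minus Nissle for Mapk14 (0.12) was -0.053 with reference assays, -0.27 without normalization and -0.068 to 0.23 with 1 sample left out; without normalization it was -0.057 for Map2k6 and -0.011 for Mapk8. Nissle minus DNBS for Mapk8 (0.51) was -0.15 with sections centred. The causes were not tested.

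With the replicate number as a block, DNBS minus healthy was 0.10 for Mapk14 and -0.062 for Mapk8, and CEC minus Nissle was -0.041 for Mapk14; the pairing changed no call of a kinase gene.

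Correlations with marker lists depended on normalization. Without it, r was -0.408 (Map2k6), 0.0517 (Mapk14) and 0.504 (Mapk8) with neutrophil markers, -0.209, 0.164 and 0.673 with macrophage markers, and 0.679, 0.717 and 0.733 with epithelial markers. Mapk14 with neutrophil markers was -0.525 with reference assays, -0.616 after quantile normalization and -0.585 without Nissle 3, 4 and 5, and with macrophage markers -0.556 after quantile normalization, none past the threshold. Map2k6 with epithelial markers was 0.616 with median Ct. With sections centred, Mapk8 had -0.0924 and -0.118 with neutrophil and macrophage markers, and Map2k6 and Mapk14 had 0.754 and 0.679 with epithelial markers. With 1 sample left out, r with neutrophil markers was -0.946 to -0.876 (Map2k6), -0.783 to -0.501 (Mapk14) and 0.169 to 0.438 (Mapk8), with macrophage markers -0.886 to -0.831, -0.835 to -0.688 and 0.325 to 0.514, and with epithelial markers 0.209 to 0.678, 0.103 to 0.65 and 0.188 to 0.688.

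For the other lists, values that changed sign were those of Map2k6 with Cr2 (0.111 with median Ct, 0.166 after quantile normalization, 0.281 without normalization, 0.181 with sections centred, 0.17 without Nissle 3, 4 and 5, and -0.22 to 0.185 with 1 sample left out). Mapk14 had 0.0236 with Selp without normalization, -0.00304 with T cell markers with sections centred, and -0.0752 to 0.426 with Cr2 with 1 sample left out. Mapk8 had -0.0174 (median Ct), -0.257 (sections centred) and -0.0236 to 0.185 (1 sample left out) with Selp, 0.38 (no normalization) and 0.21 (sections centred) with eosinophil and mast cell markers, and 0.0957 with Cr2 without normalization.

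Counts of all assays called moved more than the kinase genes did: 0 to 90 in DNBS minus healthy (1 as reported, 9 with the compared groups alone, 90 with array weights, 7 without DNBS 5, 6 without Nissle 1), 0 to 21 in CEC minus DNBS, 0 to 2 in CEC minus healthy, 0 to 3 in Nissle minus healthy and for the 3-group mean, and 0 to 37 over the 4 groups. The compared groups alone give no separate value for the last 2.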
